A study of Canis lupus familiaris with 18 samples.

Results

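*E2F1* peaks from the pons, a part of the brainstem, were described chromosome by chromosome in 6 dogs, 3 of each *GTF2I* genotype. The members are the 6 *E2F1* peak lists among the 18 samples of the series, chosen by antibody and genotype label, with every deposited peak kept. The lists hold 699737 peaks, of which 684606 lie on chromosomes 1 to 38, the dog autosomes. The 3 ancestral dogs were heterozygous for the transposable element (TE) insertion in an intron of *GTF2I*, labelled ins, and the 3 derived dogs carried no copy of it, labelled noins. All 6 were male and 12 to 16 years old, and each list comes from a different dog. Values are given in the order of dogs 1, 2 and 3 of a genotype, ancestral dogs first. Dogs were mostly of mixed breed and other polymorphic TEs of chromosome 6 were not analysed here, so the TE genotype cannot be told apart from other differences between these animals.

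E2F1 is a transcription factor that binds DNA together with a DP partner, mostly at promoters, and is held in check by the retinoblastoma protein. It is best known for switching on genes that cells need to enter DNA synthesis. The pons of an old dog consists largely of cells that no longer divide, neurons among them. *GTF2I* encodes the transcription factor TFII-I and lies on chromosome 6. In bulk tissue, fewer cells with a bound site and less binding per cell cannot be told apart.

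Lists of derived dogs were longer on average than those of ancestral dogs, and the groups overlapped. On chromosomes 1 to 38, ancestral dogs 1, 2 and 3 had 86634, 84014 and 130535 peaks. Derived dogs 1, 2 and 3 had 107268, 160157 and 115998 peaks. The longest list belonged to derived dog 2, and ancestral dog 3 had more peaks than derived dogs 1 and 3. Means ± SD were 100394 ± 26135 for the ancestral and 127808 ± 28353 for the derived group of n = 3, which is 27413 peaks more in the latter (exact two-sided permutation test, p = 0.3). With 3 dogs against 3 there are 20 assignments, and the smallest p they allow is 0.1. Without derived dog 2 the difference was 11239 peaks, and without ancestral dog 3 it was 42484.

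The direction of this difference turned with the threshold. The q value is the peak caller's p-value adjusted for the number of places tested. The authors took *E2F1* peaks with a q below 0.0005 as significant, while the deposited lists used here go beyond that threshold. At a q below 0.0005, ancestral dogs 1, 2 and 3 kept 30961, 41132 and 50080 peaks, and derived dogs 1, 2 and 3 kept 18947, 63306 and 35479. Derived dog 1 kept the smallest share of its list, 17.7%, and ancestral dog 2 the largest, 49.0%. Most peaks of every list thus do not reach this threshold. Derived dogs had both the fewest peaks, in dog 1, and the most, in dog 2. The comparison at this threshold was not repeated with a dog left out. The difference was then -1480 peaks (n = 3 dogs of each genotype; exact two-sided permutation test, p = 1).

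Many peaks rested on few DNA fragments. The number of fragments at a summit, the highest point of a peak, was recovered from the fold enrichment and p-value of each peak. The median was 7, 8 and 6 fragments in the ancestral against 7, 8 and 5 in the derived dogs. The lowest number was 5 fragments in 4 of the dogs and 4 fragments in ancestral dog 3 and derived dog 3. The commonest background level was 0.770, 0.754 and 0.523 fragments in the ancestral against 0.908, 1.03 and 0.469 in the derived dogs. The 2 dogs with the lowest background were those whose peaks began at 4 fragments, 1 of each genotype. Derived dog 2 had both the highest background and the longest list, and the part of depth in the number of peaks was not tested.

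Chromosome 9 carried the most *E2F1* peaks per Mb and chromosome 32 the fewest in all 6 dogs. On chromosome 9 the density was 73.1, 77.7 and 123.2 peaks per Mb in the ancestral against 88.8, 165.6 and 94.0 in the derived dogs. On chromosome 32 it was 18.3, 17.9 and 27.2 in the ancestral against 22.2, 24.5 and 27.6 in the derived dogs. Chromosome 9 shares most of its genes with human chromosome 17, which is rich in genes, and chromosome 32 corresponds to part of the gene-poor human chromosome 4. The ratio of chromosome 9 to chromosome 32 was 4.0, 4.3 and 4.5 in the ancestral against 4.0, 6.8 and 3.4 in the derived dogs. Derived dog 2 had the steepest and derived dog 3 the shallowest contrast, so the derived dogs enclosed the ancestral ones.

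Chromosomes 20 and 26 followed chromosome 9. Over the 6 dogs, mean densities were 103.7 peaks per Mb on chromosome 9, 85.9 on chromosome 20 and 82.0 on chromosome 26. The lowest means were 23.0 on chromosome 32, 26.2 on chromosome 29 and 29.1 on chromosome 36. Derived dog 2 had the highest density on 35 of 38 chromosomes. The exceptions were chromosomes 29 and 32, where derived dog 3 was highest, and chromosome 36, where ancestral dog 3 was highest.

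**Figure D1:**
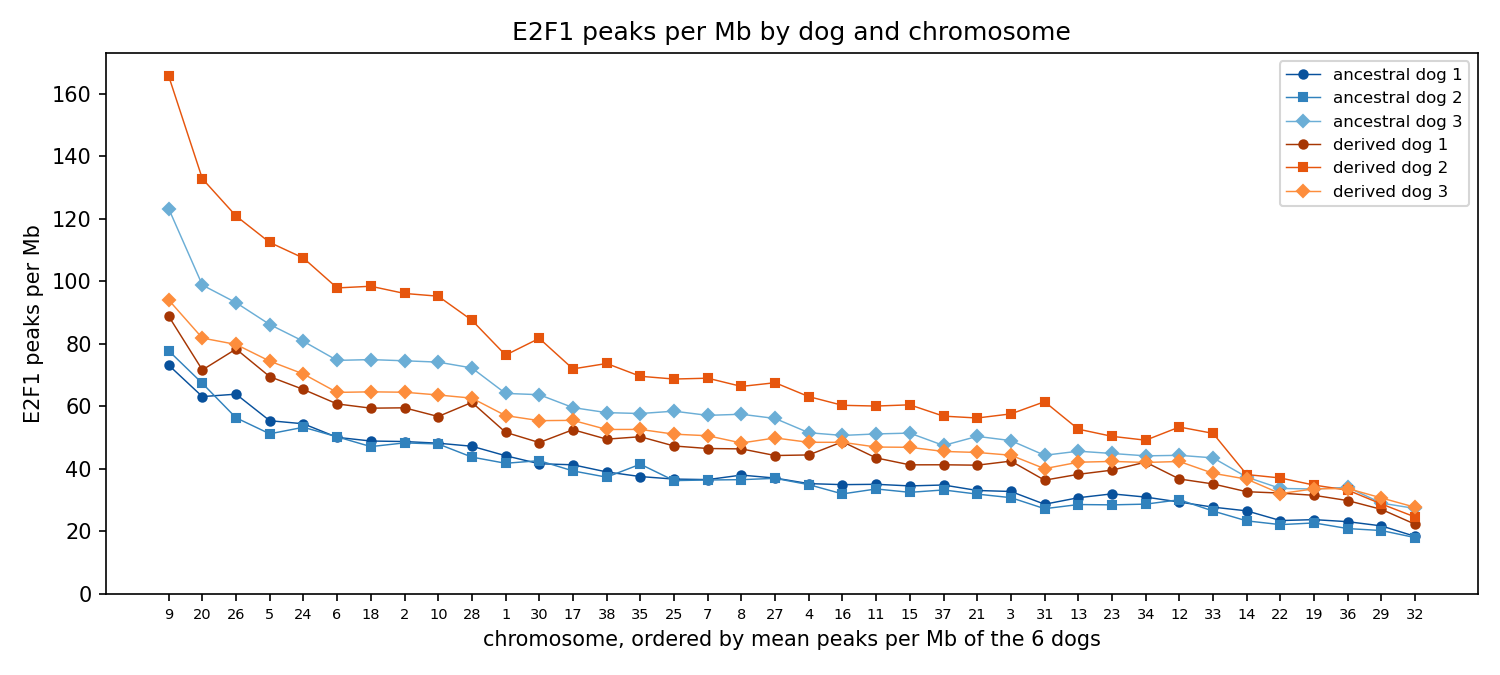
*E2F1* peaks per Mb (vertical axis) on each of 38 chromosomes (horizontal axis, ordered by the mean of the 6 dogs), with 1 line per dog, blue for ancestral and orange for derived. Lines run from chromosome 9 at the left, up to 165.6 peaks per Mb in derived dog 2, to chromosome 32 at the right, where that dog had 24.5.

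The order of the chromosomes was much alike in dogs of the same and of different genotype. Of 38 chromosomes, 27 moved by at most 3 ranks over the 6 dogs, and the largest range of ranks for a chromosome was 10. Pearson's r of log2 density over the 38 chromosomes was between 0.978 and 0.994 in the 6 pairs of dogs of the same genotype and between 0.977 and 0.997 in the 9 pairs of different genotype. These are descriptions, since chromosomes of a dog share a library and all dogs share the gene content of each chromosome. Density also followed that of *H3K27ac*, a histone mark of active promoters and enhancers, with r over the same 38 chromosomes from 0.892 in derived dog 1 to 0.925 in ancestral dog 2.

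No chromosome was called different between the genotypes in peaks per Mb. All 38 were higher on average in the derived dogs, by between 0.25 and 0.46 on the log2 scale, yet limma called 0 of 38 (0% called; smallest adjusted p = 0.266; 0 chromosomes at an unadjusted p under 0.05). These differences carry the length of each list, which every chromosome of a dog shares. Their direction turned with the threshold as well. At a q below 0.0005 all 38 were negative, from -0.35 to -0.02, and at a q below 1e-10 37 of 38 were negative, with limma calling 0 at either (0 at an unadjusted p under 0.05; smallest adjusted p = 0.831 and 0.869). Derived dog 1 kept the smallest share of its list at both thresholds, and no dog was left out at either. With all deposited peaks but without ancestral dog 3, limma called 38 of 38 chromosomes higher in the derived dogs (smallest adjusted p = 0.0241). That fit estimated a common spread over chromosomes of the same 5 lists, so it counts a shift of whole lists on every chromosome. Over the same dogs, the exact two-sided permutation test of the number of peaks gave p = 0.2.

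The share of the list on each chromosome removes its length, and the mean shares of the genotypes lay close together. Limma called 0 of 38 chromosomes (0% called; smallest adjusted p = 0.970; 0 at an unadjusted p under 0.05). Differences of log2 share, derived minus ancestral, ran from -0.11 to 0.10. Without derived dog 2, 9 chromosomes had an unadjusted p under 0.05, and none was called (limma, smallest adjusted p = 0.0527). Shares add up to a fixed total, so a rise on a chromosome lowers others.

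Chromosome 31 had the largest difference towards the derived dogs. Its share was 1.32%, 1.29% and 1.35% in the ancestral against 1.35%, 1.53% and 1.38% in the derived dogs. Derived dog 2 stood above the other 5, whose values lay close together. The log2 difference was 0.10 ± 0.06 (SE, n = 3 dogs per genotype; limma adjusted p = 0.970). Chromosomes 16 and 5 came next, with log2 differences of 0.09 ± 0.07 and 0.06 ± 0.05 (SE).

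Chromosome 32 had the largest difference towards the ancestral dogs. Its share was 0.820%, 0.827% and 0.810% in the ancestral against 0.803%, 0.594% and 0.924% in the derived dogs. The ancestral dogs were nearly alike, while derived dogs 2 and 3 were the lowest and the highest of all. The log2 difference was -0.11 ± 0.15 (SE, n = 3 dogs per genotype; limma adjusted p = 0.970). Chromosomes 20 and 8 followed, with log2 differences of -0.06 ± 0.09 and -0.06 ± 0.03 (SE).

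On chromosomes 8 and 38 the shares of the genotypes did not overlap. Chromosome 8 took 3.25%, 3.23% and 3.27% of each list in the ancestral against 3.21%, 3.08% and 3.09% in the derived dogs, and was lower in every derived dog. Chromosome 38 took 1.07%, 1.06% and 1.06% in the ancestral against 1.10%, 1.10% and 1.08% in the derived dogs, and was higher in every derived dog. That is 1 of 38 chromosomes in each direction (2.63% derived lower and 2.63% derived higher), and limma called neither (adjusted p = 0.970 for both). The differences, -0.06 and 0.04 on the log2 scale, had 95% intervals from -0.14 to 0.02 and from -0.03 to 0.11.

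**Figure D2:**
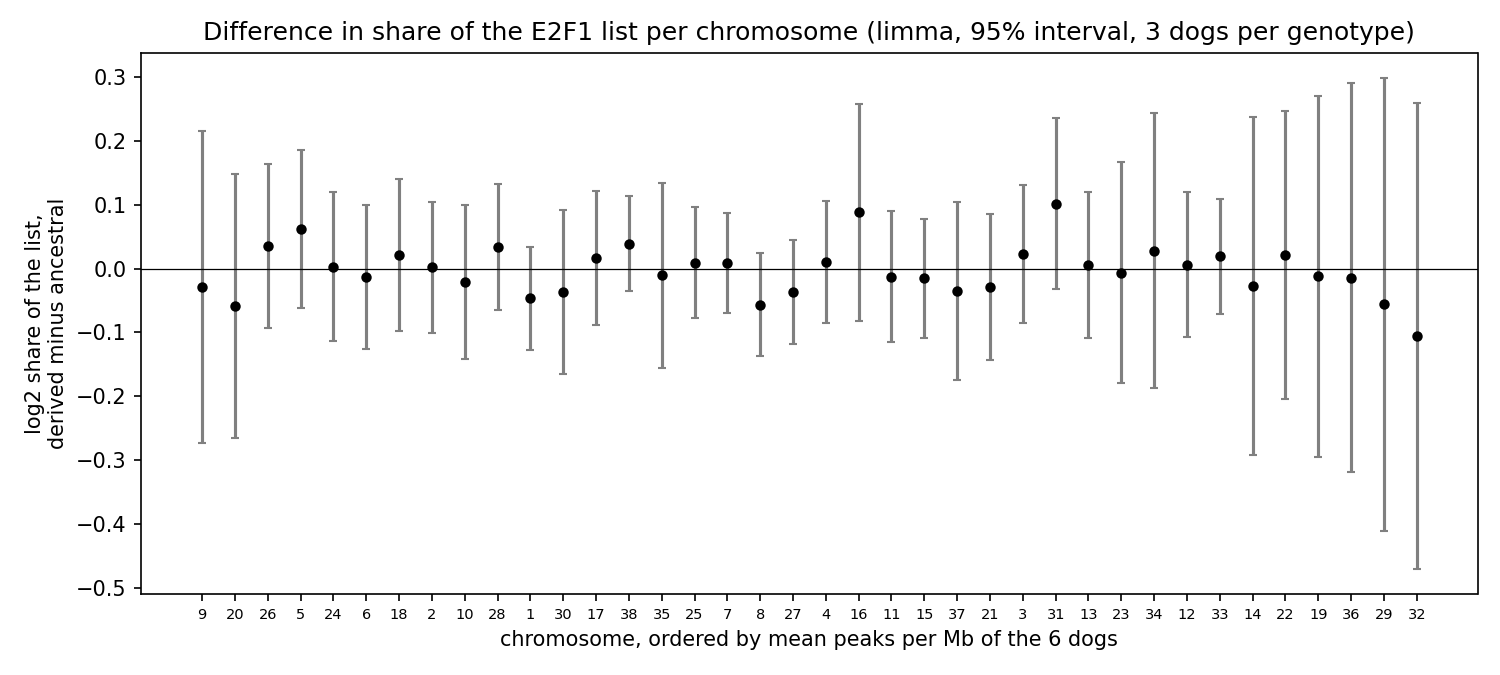
Difference in log2 share of the *E2F1* list, derived minus ancestral (vertical axis), for each of 38 chromosomes (horizontal axis, ordered by mean peaks per Mb). Points are limma estimates from 3 dogs per genotype and bars are 95% intervals, all of which include 0; the widest is that of chromosome 32, from -0.47 to 0.26.

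Chromosome 6, which carries *GTF2I* and the polymorphic TE, held a share of all peaks that overlapped between the genotypes. It took 4.48%, 4.63% and 4.44% of the list in the ancestral against 4.39%, 4.74% and 4.31% in the derived dogs. Derived dogs had both the highest and the lowest share. The difference was -0.0370 percentage points (n = 3 dogs of each genotype; exact two-sided permutation test, p = 0.8), and its sign turned without ancestral dog 2 (0.0217), derived dog 1 (0.00709) or derived dog 3 (0.0490). It was -0.167 without derived dog 2, -0.0768 without ancestral dog 3 and -0.170 with the same number of peaks, those of smallest q, from each dog. At a q below 1e-10 it turned to 1.06, with 8.70% in derived dog 1 and 5.07% to 6.09% in the other dogs. Derived dog 1 had only 747 peaks at that threshold, and 37 of them lay in the first Mb of chromosome 6, away from *GTF2I*. Peaks per Mb on chromosome 6 were 50.0, 50.2 and 74.6 in the ancestral against 60.7, 97.8 and 64.4 in the derived dogs, ranking it 6 of 38 by the mean over dogs.

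Within chromosomes, no window of 1 Mb was called different in its share of the list. Of 2220 windows, none was without a peak, and 2137 had a mean of at least 10 peaks and were tested. Limma called 0 of them (0% called; smallest adjusted p = 0.514), with 61 at an unadjusted p under 0.05, which does not show that the windows are alike. Shares of the genotypes did not overlap in 56 windows where derived dogs were higher (2.62%) and in 83 where they were lower (3.88%). Without derived dog 2, 270 windows had an unadjusted p under 0.05, and none was called (smallest adjusted p = 0.160).

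The window with the smallest p, where derived dogs were higher, lay on chromosome 2 from 56000001 to 57000000 in CanFam3.1. It held 38, 28 and 75 peaks in the ancestral against 84, 100 and 81 in the derived dogs. Every derived dog had more peaks there than every ancestral dog, also as a share of its list. The log2 difference in share was 0.66 ± 0.18 (SE, n = 3 dogs per genotype; limma adjusted p = 0.514). The next windows in this direction were on chromosome 25 from 37000001 and from 47000001, on chromosome 5 from 59000001 and on chromosome 35 from 1000001, with log2 differences from 0.47 to 0.67 and limma adjusted p of 0.921 or more.

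In the other direction the smallest p was that of chromosome 30 from 28000001 to 29000000. It held 54, 62 and 79 peaks in the ancestral against 35, 90 and 57 in the derived dogs. Derived dog 2 had the most peaks, but on a list so long that its share was below that of every ancestral dog. The log2 difference in share was -0.53 ± 0.18 (SE, n = 3 dogs per genotype; limma adjusted p = 1.00). The others were on chromosome 13 from 44000001, chromosome 21 from 24000001, chromosome 28 from 5000001 and chromosome 8 from 26000001, with log2 differences from -0.68 to -0.45.

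The densest window lay on chromosome 20 from 44000001 to 45000000. It held 167, 201 and 280 peaks in the ancestral against 170, 379 and 198 in the derived dogs. Chromosome 20 also held the next densest windows, from 55000001 and from 57000001, followed by chromosome 5 from 32000001 and the first Mb of chromosome 9. The tenth of windows with the most peaks held 25.4%, 28.0% and 28.0% of the list in the ancestral against 23.3%, 32.2% and 24.1% in the derived dogs. Derived dog 2 was again the most uneven and the other derived dogs were the most even.

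Peaks were narrower on average in the derived dogs, within the spread between dogs. The median width was 286, 283 and 239 bp in the ancestral against 229, 257 and 233 bp in the derived dogs. Ancestral dogs 1 and 2 had the widest peaks, and ancestral dog 3 lay among the derived dogs. The difference was -29.7 bp (269.3 ± 26.3 against 239.7 ± 15.1 bp, SD, n = 3; exact two-sided permutation test, p = 0.2), and -44.8 bp without ancestral dog 3. With the same number of peaks, those of smallest q, from each dog it was -14.7 bp (exact two-sided permutation test, p = 0.6). It was -16.7 bp at a q below 0.0005 and -91.2 bp at a q below 1e-10.

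The shortest peak of each list followed a similar order. It measured 217, 199 and 155 bp in the ancestral against 165, 169 and 151 bp in the derived dogs. In each list, the closest neighbouring peaks lay 1 bp further apart than the shortest peak is wide. Above that minimum the median was 69, 84 and 84 bp in the ancestral against 64, 88 and 82 bp in the derived dogs, values that overlap throughout. The difference was then -1 bp (n = 3 dogs of each genotype; exact two-sided permutation test, p = 0.8), a measure chosen after seeing the data.

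Width varied along the genome to a different extent in each dog. The range of median widths over chromosomes was widest in derived dog 2, from 231 bp on chromosome 36 to 279 bp on chromosome 20, and in ancestral dog 2, from 260 bp on chromosome 29 to 304 bp on chromosome 20. It was narrowest in derived dog 3, from 226 bp on chromosome 29 to 242 bp on chromosome 20. Chromosomes dense in peaks had the wider ones, with Pearson's r of width and log2 density over 38 chromosomes from 0.622 in derived dog 3 to 0.907 in derived dog 2. These points share a library and are given as a description. Limma called 0 of 38 chromosomes in median width (0% called; smallest adjusted p = 0.135; 0 at an unadjusted p under 0.05), although all 38 differences were negative, from -0.19 to -0.15 on the log2 scale. Without ancestral dog 3 it called 38 of 38 narrower in the derived dogs (smallest adjusted p = 0.000324), again a shift of whole lists, for which the exact two-sided permutation test gave p = 0.1, the smallest that 3 dogs against 2 allow. With width above the shortest peak, the smallest adjusted p over all 6 dogs was 0.982.

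**Figure D3:**
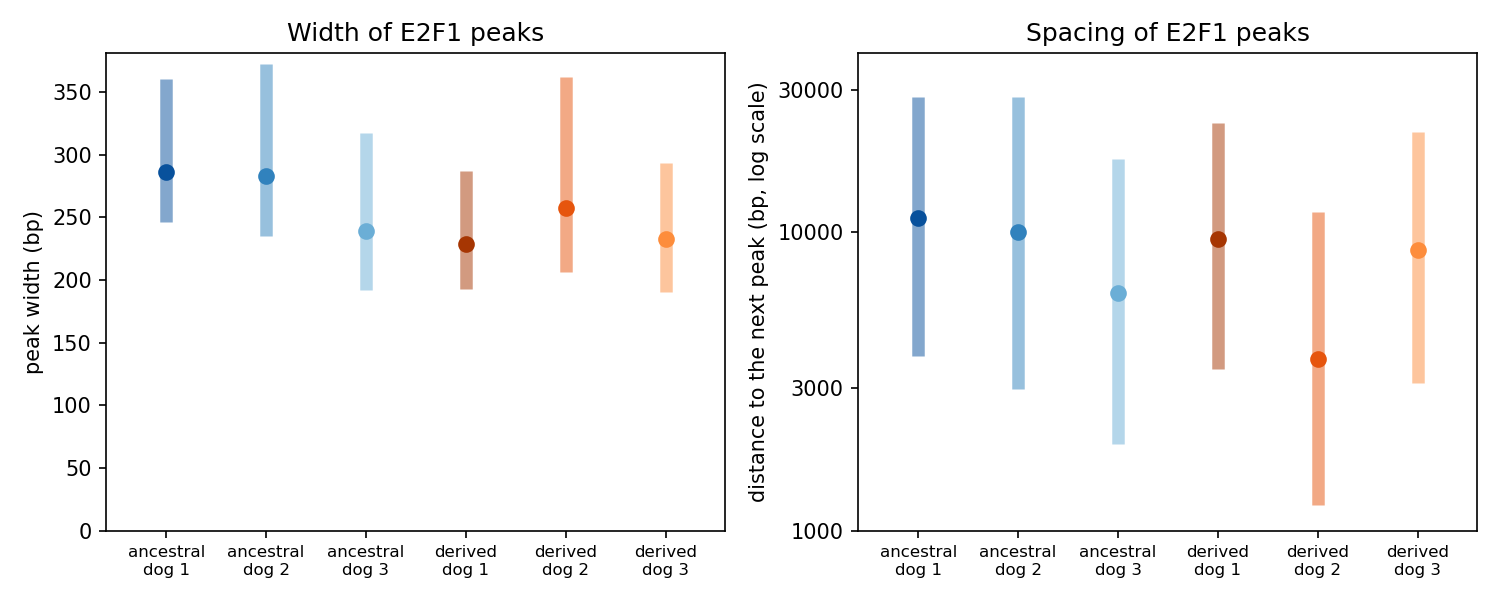
Width of *E2F1* peaks in bp (left) and distance to the next peak in bp on a log scale (right) for each dog. Points are medians and bars run from the lower to the upper quartile; ancestral dogs 1 and 2 had the highest median widths, 286 and 283 bp, and derived dog 2 the shortest median distance, 3757 bp.

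Summits lay on both sides of the peak centre, and their mean position was slightly towards the lower coordinate in all 6 dogs. Position was measured from 0 at the lower to 1 at the higher end. Its mean was 0.494, 0.490 and 0.491 in the ancestral against 0.487, 0.490 and 0.488 in the derived dogs. Positions from 0.4 to 0.6 held 33.2%, 33.6% and 42.0% of summits in the ancestral against 33.5%, 32.4% and 43.6% in the derived dogs, so most summits lay outside them. All means were below 0.5, and between 34 and 38 of 38 chromosomes in each dog had a mean below it. The offset is counted from 0 and divided by width, so the middle base of a peak itself lies slightly below 0.5. Where a summit is a flat stretch, a caller's choice of base within it can move the mean position, which was not tested.

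The median distance of the summit from the peak centre, in peak widths, varied between dogs, and the genotypes overlapped. It was 0.165, 0.161 and 0.126 in the ancestral against 0.161, 0.164 and 0.120 in the derived dogs. Ancestral dog 3 and derived dog 3, whose peaks began at 4 fragments, had the most central summits. The difference was -0.00258 (n = 3 dogs of each genotype; exact two-sided permutation test, p = 0.6), and its sign turned without ancestral dog 1 (0.00471), ancestral dog 2 (0.00244) or derived dog 3 (0.0114). It was -0.0149, -0.00888 and -0.0102 without ancestral dog 3, derived dog 1 and derived dog 2. In peaks with the fewest fragments the distance was 0.0991, 0.0968 and 0.0775 in the ancestral against 0.105, 0.115 and 0.0806 in the derived dogs, so summits of the smallest peaks were more central in every dog.

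No chromosome was called different in mean summit position. Limma called 0 of 38 (0% called; smallest adjusted p = 0.210), with 2 at an unadjusted p under 0.05. These were chromosomes 2 and 5, named here after their values were seen. On chromosome 2 the position was 0.500, 0.493 and 0.498 in the ancestral against 0.485, 0.487 and 0.483 in the derived dogs, a difference of -0.0117 ± 0.00337 (SE, n = 3 dogs per genotype; limma adjusted p = 0.210). Positions of the genotypes did not overlap on 4 of 38 chromosomes where derived dogs were lower, 2, 5, 16 and 17 (10.5%), and on 1 of 38 where they were higher, 15 (2.63%).

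Peaks lay closer together in derived dogs on average, and the groups overlapped. The median distance from the end of a peak to the start of the next was 11186, 10061 and 6248 bp in the ancestral against 9528, 3757 and 8764 bp in the derived dogs. Derived dog 2 had the closest peaks, followed by ancestral dog 3. The difference was -1816 bp (9165 ± 2588 against 7350 ± 3135 bp, SD, n = 3; exact two-sided permutation test, p = 0.5). It was -3274 bp without ancestral dog 3, -2905 bp without derived dog 1, -805 bp without ancestral dog 1 and -19.2 bp without derived dog 2, and at a q below 0.0005 it turned to 8935 bp. With the same number of peaks from each dog it was -252 bp (exact two-sided permutation test, p = 0.9).

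Clustering was read from the ratio of the median to the mean distance, which is lower where peaks lie in groups. The ratio was 0.446, 0.389 and 0.377 in the ancestral against 0.470, 0.280 and 0.468 in the derived dogs. Derived dogs had the lowest value, in dog 2, and the highest ones, in dogs 1 and 3. The difference was 0.00203 (n = 3 dogs of each genotype; exact two-sided permutation test, p = 1). It rose to 0.0650 without derived dog 2 and to 0.0231 without ancestral dog 1. Its sign turned without each of the other dogs, to -0.0299 at the most, without derived dog 1. Distances under 1 kb made up 7.77%, 10.9% and 14.9% of all in the ancestral against 8.24%, 21.3% and 9.37% in the derived dogs.

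Spacing mirrored density along the genome. Median distances were shortest on chromosome 9 or 20 and longest on chromosome 32 in every dog. In ancestral dog 1 they ran from 6687 bp on chromosome 20 to 30211 bp on chromosome 32, and in derived dog 2 from 2126 bp to 17773 bp on the same chromosomes. Derived dog 2 had the shortest distance on all 38 chromosomes. Limma called 0 of 38 chromosomes in median spacing (0% called; smallest adjusted p = 0.539; 0 at an unadjusted p under 0.05). All 38 differences were negative, but without derived dog 2 only 18 were negative and 20 positive, and at a q below 0.0005 36 of 38 were positive.

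The longest stretches without a peak differed from dog to dog. They measured 938441 bp on chromosome 17 from 46139822 to 47078262 in ancestral dog 1, and 976687 bp on chromosome 22 from 13866898 to 14843584 in ancestral dog 2. The longest of all was 1087071 bp on chromosome 4 from 76492381 to 77579451, in derived dog 2, the dog with the most peaks. Those of ancestral dog 3 and derived dog 1 both lay on chromosome 32, at different places, and measured 641127 and 591160 bp. In derived dog 3 the longest was 770450 bp, on chromosome 14.

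Peaks with a q below 1e-10 were few, and their shares by chromosome were compared with those of all peaks without a test. They numbered 1461, 4302 and 6646 in the ancestral against 747, 5823 and 2797 in the derived dogs. The share on 6 of 38 chromosomes, 1, 6, 8, 12, 27 and 35, was higher among them than among all peaks in every dog, and that on 13 of 38 was lower in every dog. With 747 such peaks in derived dog 1, its shares rest on small numbers. Chromosome 1 held 9.99%, 8.90% and 8.10% of them in the ancestral against 8.43%, 8.07% and 8.65% in the derived dogs. These chromosomes were picked by the values given, which are a description.

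Derived dog 1 stood apart in where these peaks lay. The first Mb of the chromosomes held 12.5%, 4.79% and 3.58% of them in the ancestral against 29.0%, 4.91% and 5.08% in the derived dogs. Of all peaks it held 2.53%, 2.39% and 2.41% in the ancestral against 2.50%, 2.37% and 2.28% in the derived dogs, so the share was higher among these peaks in every dog, and derived dog 1 did not stand apart over all peaks. Their number there was 182, 206 and 238 in the ancestral against 217, 286 and 142 in the derived dogs, so derived dog 1 differed little in this number and had few elsewhere. On chromosome 20 from 44000001 to 45000000 it had 0, against 11, 28 and 28 in the ancestral dogs, 30 in derived dog 2 and 10 in derived dog 3. On chromosome 6 from 1 to 1000000 it had 37, against 25, 24 and 20 in the ancestral dogs, 31 in derived dog 2 and 17 in derived dog 3. Dog autosomes have their centromere at an end, and whether the first Mb lies at that end was not checked for each chromosome.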

How the data were processed

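*ChIP-seq* for *E2F1* was made from 50 mg of frozen pons per dog, with libraries of 15 PCR cycles selected for 250 to 450 bp. The authors removed duplicates by molecular identifiers, aligned reads to CanFam3.1 with bowtie, keeping reads that map to several places, and called narrow peaks in each dog with macs2. The submitters' processing notes name Trim Galore 0.0.6, Bowtie 1.1.2 and MACS2 2.2.0, and the authors' methods name a later version of bowtie. Whether input libraries entered the calls is not given in the sources used here. For their test of differential peaks, the authors dropped sites enriched in input DNA and compared sites called in most dogs of a genotype. Neither filter was applied here. The paper also reports unusually high noise and low cross-correlation scores for its *E2F1* data. The deposited fold enrichment is a ratio over macs2's local background, and the significance the authors deposited is given as −log10 p and, adjusted, as −log10 q at the summit. The deposited positions are start, end and summit offset in bases. No normalization between dogs was applied by the authors to these lists.

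Genotype and replicate number of a dog come from its sample label. Chromosome length was the highest peak end among the 12 *E2F1* and *H3K27ac* lists, 2204 Mb over 38 chromosomes. Fragments at a summit were solved from fold, (P + 1)/(background + 1), and the Poisson tail beyond P, to within 0.01%, which more than 1 whole number met for at most 1.11% of the peaks of a list. The total number of fragments per library was not used here. Single values per dog were compared with exact two-sided permutation tests over 20 assignments. Chromosomes and windows were compared with limma 3.58.1 (R 4.3.3) and Benjamini-Hochberg adjustment at 0.05: log2 share, log2 density, log2 median width, mean summit position and log2 median spacing over 38 chromosomes, and log2 share with 1 peak added and a mean-variance trend over windows with a mean of at least 10 peaks. For density, width, spacing and windows, limma pooled the spread completely over features that share the same dogs, so these p-values treat it as known. The fits of share over chromosomes and windows were tested on simulated data, and the other fits were not. Python 3.11.15, numpy 2.4.6, pandas 2.3.3 and scipy 1.17.1 were used.

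Chromosomes named for density or share are chromosome 6, the 3 highest and 3 lowest in density and those called. Also named are the 3 largest differences in share each way and those whose shares do not overlap. Windows named for a difference are the 5 of smallest p each way. Other chromosomes and windows were picked by the values given with them. Members, lists and tests were chosen with earlier results of these data known. Alternatives were a q below 0.0005 or 1e-10, an equal number of peaks per dog, each dog left out, the replicate number as a block, and other definitions of spacing, width, share and windows. Peaks on chromosome X and on the mitochondrial sequence were left out of the comparisons. Sequences and genes at the peaks were not analysed here.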

Additional observations from a re-analysis of the deposited data

Results flagged for a closer look

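Chromosome X and the mitochondrial sequence were outside the comparisons and held *E2F1* peaks. On chromosome X the mean over the 6 dogs was 20.4 peaks per Mb. It was 12.9, 15.0 and 25.2 in the ancestral (1, 2, 3) against 19.3, 25.8 and 23.9 in the derived dogs, between 0.328 and 0.454 of the density of each dog's autosomes. All 6 dogs were male and carry a single X, and the part of copy number in this value was not tested. The mitochondrial sequence held 7 peaks in the 6 lists together, 3, 1 and 1 in the ancestral against 0, 1 and 1 in the derived dogs. In each of the 5 dogs with such a peak, one ended between positions 16468 and 16530. Mitochondrial DNA is present in many copies per cell, and no level in input DNA was used here. Groups of 3 dogs were not tested for outlying samples.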

How the results depend on the processing

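Of 132 alternatives over 12 results, 114 kept the direction or the count, 16 turned the sign of a difference and 2 changed a count of calls. All differences are derived minus ancestral, and no exact test of 6 dogs could pass 0.05. At a q below 0.0005 the difference in *E2F1* peaks per dog was -1480 and in median spacing 8935 bp; at a q below 1e-10 they were -1014 and 196523 bp, and the share on chromosome 6 differed by 1.06 percentage points, with 8.70% in derived dog 1 and 5.07% to 6.09% in the other dogs. With equal numbers of peaks the ratio of median to mean spacing differed by -0.0103, median spacing by -252 bp, median width by -14.7 bp and the share on chromosome 6 by -0.170 percentage points. At a q below 1e-10 derived dog 1 had 747 peaks, 37 of them in the first Mb of chromosome 6. No dog was left out at either q threshold or with equal numbers of peaks. The causes were not tested.

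With each dog left out in turn, the difference ran from 11239 to 42484 in peaks per dog, from -44.8 to -21.3 bp in median width, from -0.0149 to 0.0114 in distance of the summit from the centre, from -3274 to -19.2 bp in median spacing, from -0.0299 to 0.0650 in its ratio to the mean and from -0.167 to 0.0490 percentage points in the share on chromosome 6. The number of chromosomes called ran from 0 to 38 in peaks per Mb and in median width, 38 only without ancestral dog 3. It was 0 with each dog left out in share, summit position and spacing, as was the number of windows.

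With the replicate number as a block (replicate block), limma called 0 chromosomes in each of the 5 measures and 0 windows, and the paired difference in peaks per dog was 27413 (exact sign-flip test, p = 0.5; the smallest p of 3 pairs is 0.25). Replicate numbers mark different dogs, and deviations of log2 share in same-numbered dogs had correlations over 38 chromosomes of 0.689, 0.203 and -0.485, so the numbers do not pair them. Peaks of each list began at 4 or 5 fragments at the summit, and a place without a peak has no value.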

Other observations

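Peaks of very high fold enrichment were few. Peaks with a fold over 100 on chromosomes 1 to 38 numbered 8, 18 and 19 in the ancestral (1, 2, 3) against 24, 29 and 23 in the derived dogs, groups that do not overlap in number. As a share of each list they were 0.00923%, 0.0214% and 0.0146% in the ancestral against 0.0224%, 0.0181% and 0.0198% in the derived dogs, and the groups overlap. The number was found by looking through 60 measures per dog, of which 2 did not overlap, and no test was made. The other was the share of peaks at the commonest background level, 21.5%, 26.8% and 24.2% in the ancestral against 33.7%, 31.4% and 28.0% in the derived dogs. Many of these measures come from the same lists and move together.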
